A study of Homo sapiens with 48 samples.

Results

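The genes described are 40 genes of mitosis and cell division, chosen by name for what their products do. They were chosen with earlier results of these data known. They cover cyclins and CDK1 with its activating phosphatases, mitotic kinases, the spindle checkpoint and anaphase machinery, centromere and kinetochore proteins, the chromosomal passenger complex, mitotic kinesins, spindle proteins, cytokinesis proteins, TOP2A and MKI67. All 40 were found among the 58870 genes of the count table, and all 40 were among the 16697 genes with enough reads to be tested. The 48 sequenced libraries came from stable lines of Flp-In 293 T-REx, which descends from human embryonic kidney cells and takes up a transgene at a single recombination site. Each of 8 stable lines was transfected with siNT, a non-targeting siRNA, or siUPF1, an siRNA to UPF1, at 40 nM and collected at 72 h, in 3 biological replicates per line and siRNA. UPF1 is the RNA helicase at the core of nonsense-mediated decay (NMD), the pathway that destroys mRNAs with an early stop codon and also some normal ones.

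The line called CLIP carried only the CLIP protein tag, and the line called WT carried CLIP-tagged wild-type UPF1. CLIP-tagged UPF1 mutants were carried by F192E, I757R and E797R and by FE-ER, IR-ER and LECY, and the names FE-ER, IR-ER and LECY are used as labels because the sources used here do not spell them out. All lines share the same parent, and each transgenic line is represented by 1 stable line, so line and transgene cannot be told apart. Whether the transgenes were induced, and how, was not given in the sources used here. Levels are given as CPM, the usual count of a gene scaled to the depth of its library. UPF1 RNA in CLIP cells dropped from 106 ± 7.45 CPM under siNT to 20.4 ± 0.916 CPM under siUPF1 (mean ± SD of 3 libraries each). In the 7 lines with CLIP-UPF1, libraries held between 3050 and 5116 CPM of UPF1, transgene and endogenous gene summed, with either siRNA. A fall of the endogenous gene cannot be read from these sums. Knockdown and knockdown effect below name the comparison of siUPF1 with siNT. Whether a change came from loss of UPF1 or from another effect of the siRNA was not tested.

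Cells enter mitosis when cyclin B and CDK1 become active together with the Aurora and Polo kinases. The spindle checkpoint then holds the anaphase-promoting complex (APC/C) until every kinetochore is attached, after which securin and the cyclins are destroyed, chromatids separate and the cell is cleaved. Most of the genes involved are transcribed late in the cell cycle through promoters that share a cell cycle genes homology region (CHR) and CCAAT boxes, which makes their mRNAs useful as a reading of a dividing culture. Cultured 293 cells divide rapidly, and these mRNAs are abundant in them.

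The promoters are shown first because so many of these genes carry the same letters there. Each line gives the 100 bases before the gene's start in RefSeq (GRCh38.p14), 5′ to 3′ on the gene's strand, and capitals mark the CHR letters TTTGAA and the CCAAT box, each read on either strand. HMMR and KIF23 had the largest falls, CCNB2 also fell, PLK1 did not pass the test in any comparison with siNT, KIF11 rose when 7 lines were averaged, and TOP2A has no CHR letters in these bases.
HMMR (chr5:163460532-163460631, plus strand): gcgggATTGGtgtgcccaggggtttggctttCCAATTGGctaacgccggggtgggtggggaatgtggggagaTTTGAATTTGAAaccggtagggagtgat
KIF23 (chr15:69414249-69414348, plus strand): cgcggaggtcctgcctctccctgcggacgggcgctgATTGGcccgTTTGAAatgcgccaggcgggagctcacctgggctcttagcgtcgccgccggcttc
CCNB2 (chr15:59105046-59105145, plus strand): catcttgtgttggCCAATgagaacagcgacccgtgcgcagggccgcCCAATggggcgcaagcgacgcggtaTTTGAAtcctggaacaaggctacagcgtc
PLK1 (chr16:23678789-23678888, plus strand): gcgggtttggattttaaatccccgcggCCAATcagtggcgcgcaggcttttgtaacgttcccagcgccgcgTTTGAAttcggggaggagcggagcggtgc
KIF11 (chr10:92593030-92593129, plus strand): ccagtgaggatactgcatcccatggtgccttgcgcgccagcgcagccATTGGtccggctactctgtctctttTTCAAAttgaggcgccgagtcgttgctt
TOP2A (chr17:40417897-40417996, minus strand): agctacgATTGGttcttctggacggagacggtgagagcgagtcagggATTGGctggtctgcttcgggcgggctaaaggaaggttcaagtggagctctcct

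Of the 40 genes, 34 had a promoter in the RefSeq table, as windows from 250 bases before to 50 bases after a start. AURKA, TTK, BUB3, UBE2C, BIRC5 and TPX2 had none there. On either strand, the letters TTTGAA or TTCGAA occurred in at least 1 window of 27 of the 34 genes and CCAAT in 28. Counted by window, TTTGAA or TTCGAA stood in 68.2% of the 44 windows of these genes and in 16.4% of all 35116 windows of the table, and CCAAT in 75% and 34.6%. Both were present in 56.8% of the windows of these genes and in 6.38% of all windows. In the mean of the 7 CLIP-UPF1 lines, TTTGAA or TTCGAA was found in 17 of the 22 genes with a promoter that fell, in 1 of the 2 that rose and in 9 of the 10 that did not pass. A match of letters is a description of these windows and not a binding site.

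Between 6016999 and 14551820 expected counts were deposited per library (median 8670884), and the 40 genes together took 50858 to 127737 of them. The 293 markers KRT8, KRT18 and VIM were present in every library (lowest values 80.9, 61 and 440 CPM). Of 6 blood and endothelial markers, CD3E was at 0 in all 48 libraries, CDH5 in 44, PTPRC in 41, HBB in 34, PECAM1 in 33 and CD68 in 0. Of 6 fibroblast markers, COL1A2 and DCN were at 0 in 46 libraries and LUM in 22, while COL1A1, COL3A1 and PDGFRA were present in all (medians 2.34, 2.69 and 3.08 CPM). The fibroblast list summed to 4.04 to 13.2 CPM and the blood and endothelial list, nearly all of it CD68, to 4.15 to 11.8 CPM. Mitochondrial mRNAs took 1.98% to 4.41% of a library. They did not pass the test in CLIP cells (0 of 13 with edgeR), and 5 of 13 rose in the mean of the 7 CLIP-UPF1 lines, with a median change of 0.23 (log2). Some markers also moved with knockdown: COL3A1 fell in CLIP (−1.40, edgeR adjusted p = 0.0103) and rose in I757R (1.16) and E797R (1.48), COL1A1 fell in LECY, and of the 293 markers INA fell in all 8 lines (−0.42 in CLIP) and PAX2 in CLIP (−1.32), F192E and LECY. The part of these and of the mitochondrial mRNAs in the results below was not tested.

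Levels before knockdown placed MKI67, the proliferation antigen that coats mitotic chromosomes, and TOP2A, the topoisomerase that untangles them, at the top. Per kilobase of annotated exon, the mean siNT level was 193 CPM per kb for MKI67, 129 for TOP2A, 98.8 for the kinetochore protein CENPF and 97.6 for the spindle assembly factor TPX2. CENPA, the histone H3 variant that marks the centromere, was lowest at 4.53 CPM per kb. With siNT no difference between lines was called in these genes. None of the 40 genes passed in WT against CLIP (0.012% of all genes tested passed in either direction) or in any of the 6 mutants against WT (0% to 0.018% of all genes). DESeq2 and a fit with the replicate number as a block also called 0 of 40 in these 7 comparisons, and at an unadjusted p under 0.05 there was 1 gene, in E797R against WT (2.88% of all genes there, and 1.52% to 2.8% in the other 6).

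With siUPF1 in CLIP cells, 10 of the 40 genes fell and none rose. Across all genes tested, 15.6% fell and 18.1% rose, so the 25% of mitosis genes that fell is set against a background of 15.6%. Because the list was chosen with earlier results of these data known, this excess was not tested. HMMR, the hyaluronan-mediated motility receptor that binds spindle microtubules, and KIF23, the kinesin of the central spindle, fell most. AURKA, BUB1, TOP2A, CDK1, CCNB1, BUB3, PTTG1 and CCNB2 fell by less. The median over the 40 genes was −0.20 (log2) and that over all genes −0.03. Called means an adjusted p under 0.05 in edgeR's quasi-likelihood test, adjusted by Benjamini-Hochberg over all genes tested. At an unadjusted p under 0.05 there were 15 of the 40, against 42.1% of all genes in either direction, again none of them higher, and DESeq2 likewise raised none. Same-numbered libraries of a line deviated together (correlations are given with the processing). With the replicate block 20 genes fell and 1, TTK, rose, against 22.2% and 23.5% of all genes. In RNA from whole cultures, fewer cells in G2 and mitosis and less of these mRNAs per cell cannot be told apart.

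**Figure D1:**
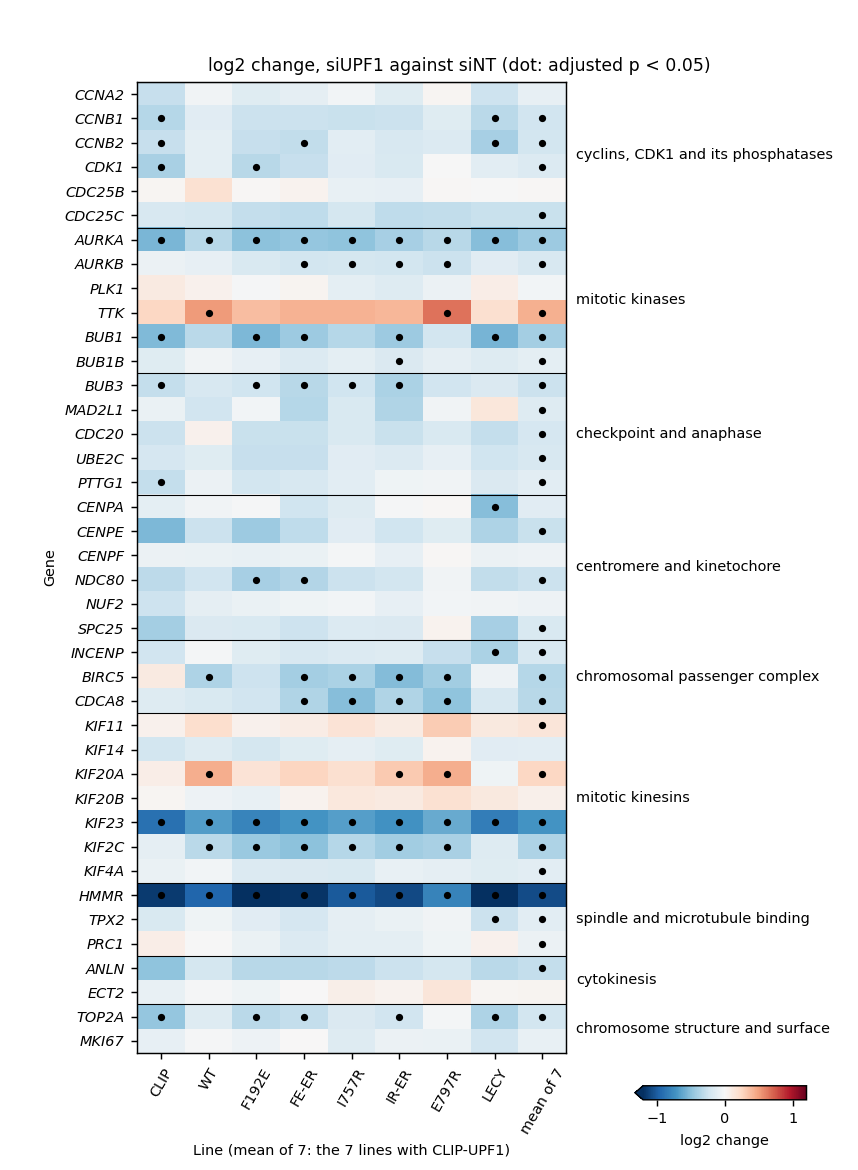
Change of each of the 40 genes on UPF1 knockdown (colour, log2 of siUPF1 over siNT) in the 8 lines and in the mean of the 7 lines with CLIP-UPF1, grouped by role, with a dot where the adjusted p is under 0.05. Dots run across all 8 lines for HMMR, KIF23 and AURKA, while TTK and KIF20A are the genes shown in red with a dot in single lines.

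HMMR (chromosome 5, 163460203 to 163491945, hg38, plus strand) was measured in CLIP cells at 104.6, 124.1 and 101.4 CPM with siNT and at 51.72, 54.02 and 42.59 CPM with siUPF1. The siRNA groups were far apart, and 44.9% of the siNT level remained. HMMR thus fell by 1.15 on the log2 scale (SE 0.14, edgeR adjusted p = 9.85e-09). In the other 7 lines HMMR also fell, with 41.4% left in LECY and 57.5% left in E797R at the extremes. Across all lines the 24 siUPF1 libraries lay between 38.19 and 64.87 CPM and the 24 siNT libraries between 91.78 and 133.7 CPM, with no overlap. The mean over the 7 CLIP-UPF1 lines was −1.07 (SE 0.05, edgeR adjusted p = 1.5e-20), the largest change among the 40 genes there as in CLIP.

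KIF23 (chromosome 15, 69414246 to 69448427, hg38, plus strand) is the motor of centralspindlin, which bundles microtubules between the separating chromosomes and places the cleavage furrow. It stood at 214.7, 243.1 and 200.5 CPM in CLIP cells with siNT and at 106.4, 132.5 and 114.2 CPM with siUPF1, so every knockdown library was well under every control library. The change was −0.90 (SE 0.13, edgeR adjusted p = 4.3e-07). Elsewhere it fell by between 0.61 (E797R) and 0.83 (LECY) on the log2 scale, and by 0.71 in the mean of the 7 lines (edgeR adjusted p = 4.01e-16). Over all lines, siUPF1 libraries ranged from 106.4 to 156.7 CPM and siNT libraries from 175.1 to 261.4 CPM, again without overlap. RACGAP1, the partner of KIF23 in centralspindlin, is not among the 40 genes. It fell by 0.81 in CLIP cells (edgeR adjusted p = 2.67e-09) and by 0.76 in the mean of the 7 lines (edgeR adjusted p = 1.87e-21).

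**Figure D2:**
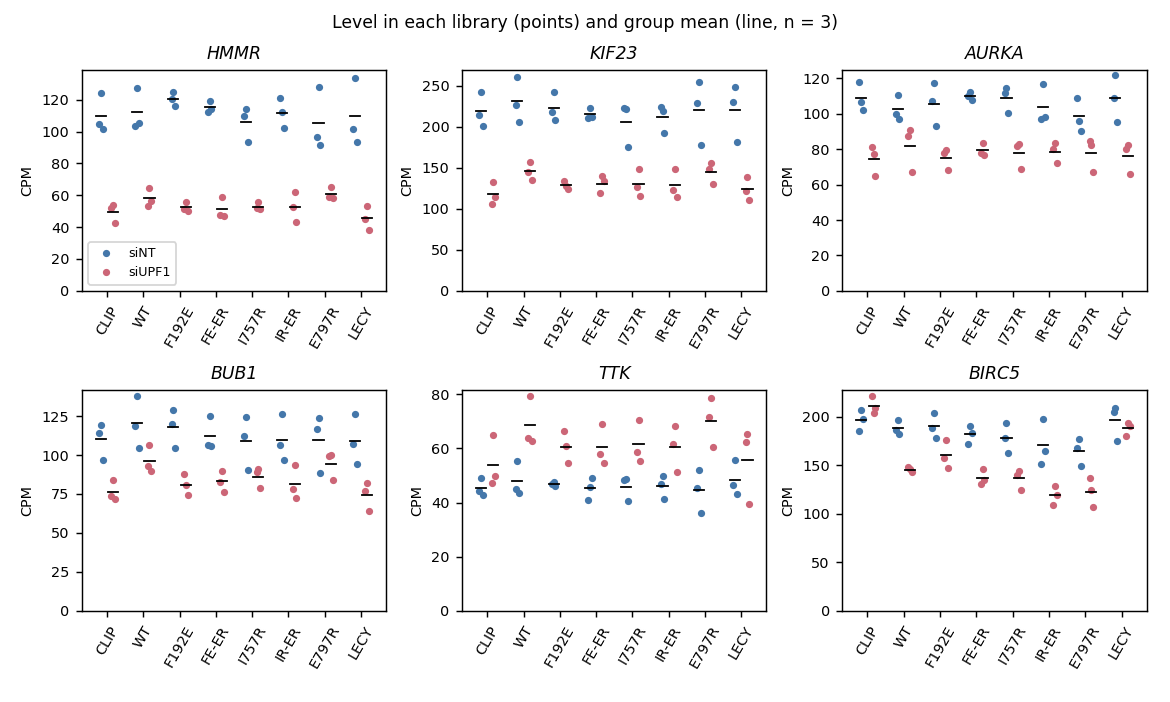
Level of 6 genes in each library (points, CPM) with the group mean (line, n = 3), siNT in blue and siUPF1 in red, in the 8 lines. HMMR and KIF23 show 2 separate bands in every line, TTK runs the other way, and BIRC5 separates in 6 lines but overlaps in CLIP and LECY.

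Among the mitotic kinases, AURKA and BUB1 fell while TTK rose. AURKA (chromosome 20, 56369389 to 56392337, hg38, minus strand), the centrosomal Aurora kinase that matures spindle poles, was at 117.7, 106.9 and 102.1 CPM with siNT and 81.03, 77.36 and 65.13 CPM with siUPF1 in CLIP. The libraries of the 2 siRNAs did not overlap in CLIP or in any of the other lines. The change in CLIP was −0.55 (SE 0.11, edgeR adjusted p = 2.48e-04) and in the mean of the 7 lines −0.43 (SE 0.04, edgeR adjusted p = 3.99e-11). AURKA passed in all 8 lines, closest to the threshold in WT (−0.33, edgeR adjusted p = 0.0483). BUB1 (chromosome 2, 110637698 to 110678114, hg38, minus strand), the checkpoint kinase that marks the inner centromere, was at 113.9, 119.5 and 96.95 CPM with siNT and 73.45, 83.79 and 71.47 CPM with siUPF1 in CLIP. The groups did not overlap there, in F192E, FE-ER, IR-ER or LECY, and overlapped in WT, I757R and E797R. BUB1 fell in CLIP (−0.53, edgeR adjusted p = 0.00222), F192E, FE-ER, IR-ER and LECY, and with the replicate block in all 8 lines.

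TTK (chromosome 6, 80003887 to 80042527, hg38, plus strand), the kinase MPS1 that starts checkpoint signalling at unattached kinetochores, was one of the few genes with a higher level after knockdown. In WT it was at 44.82, 55.52 and 43.41 CPM with siNT and 63.82, 79.39 and 62.86 CPM with siUPF1, and in E797R at 45.21, 52.02 and 36.28 CPM and 71.45, 78.78 and 60.7 CPM. The siUPF1 libraries were all higher in both lines, and TTK rose by 0.51 in WT (edgeR adjusted p = 0.0183) and 0.65 in E797R (edgeR adjusted p = 0.00241). In CLIP it was at 44.41, 49.24 and 42.74 CPM with siNT and 47.31, 64.77 and 49.95 CPM with siUPF1, where the groups overlap (0.25, SE 0.15, edgeR adjusted p = 0.219). The mean over the 7 lines was 0.42 (SE 0.06, edgeR adjusted p = 6.22e-08). The difference between the mean of the 7 lines and CLIP was 0.17 (95% interval −0.16 to 0.51, edgeR adjusted p = 0.715), so a larger rise with a transgene was not shown in that mean. With the replicate block TTK rose in CLIP (0.24, edgeR adjusted p = 0.0387) and in every other line except LECY, and its rise in E797R exceeded that in CLIP by 0.42 (edgeR adjusted p = 0.0377).

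The remaining kinases moved little. AURKB, the Aurora kinase of the passenger complex, fell in FE-ER, I757R, IR-ER and E797R by 0.22 to 0.25 on the log2 scale and did not pass in CLIP (−0.07, edgeR adjusted p = 0.486). BUB1B, the checkpoint protein BUBR1, fell in IR-ER alone among single lines and by 0.12 in the mean of the 7 lines (edgeR adjusted p = 1.82e-05). With the block BUB1B also fell in CLIP, FE-ER and LECY and AURKB also in F192E. PLK1, the Polo kinase needed at nearly every step of mitosis, passed in no line and had 0.11 in CLIP (edgeR adjusted p = 0.491) and −0.03 in the mean of the 7 lines (95% intervals in the plot of estimates include 0).

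Of the 6 genes for cyclins, CDK1 and its phosphatases, 3 fell in CLIP and 4 in the mean of the 7 lines, and none rose in either (all genes: 15.6% lower and 18.1% higher in CLIP, 29.1% and 29.8% in the mean). CDK1, the kinase that drives entry into mitosis, was at 99.68, 121.7 and 109.7 CPM with siNT and 75.15, 97.85 and 80.31 CPM with siUPF1 in CLIP. The siUPF1 libraries were all lower, but replicate 2 with siUPF1 lay close under the lowest siNT library. The change was −0.39 (SE 0.12, edgeR adjusted p = 0.0104), and CDK1 also fell in F192E. Without replicate 2 of siNT or replicate 1 of siUPF1 the call in CLIP was lost (edgeR adjusted p = 0.0763 and 0.0689). It was at −0.00 in E797R. The B cyclins CCNB1 and CCNB2, partners of CDK1, fell by 0.34 and 0.28 in CLIP (edgeR adjusted p = 0.0136 and 0.0382) and by 0.23 and 0.22 in the mean of the 7 lines. CCNA2, the cyclin of S phase and G2, passed in no line without the block, and with it fell in CLIP (−0.28, edgeR adjusted p = 0.00514) and LECY. The block also added falls of CDK1 in FE-ER, of CCNB1 in F192E, FE-ER, I757R and IR-ER, and of CCNB2 in F192E. CDC25C, a phosphatase that activates CDK1, fell in the mean of the 7 lines (−0.27, edgeR adjusted p = 1.33e-06) and in no single line without the block. With the block CDC25C fell in F192E, FE-ER, IR-ER, E797R and LECY (edgeR adjusted p = 0.0349 to 0.0482). CDC25B, its relative, was at 0.01 in the mean of the 7 lines (edgeR adjusted p = 0.849).

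All 5 checkpoint and anaphase genes fell in the mean of the 7 lines, where 29.1% of all genes fell, by 0.12 to 0.25 on the log2 scale. BUB3, the adaptor that carries BUB1 and BUB1B to kinetochores, fell in CLIP (−0.29, edgeR adjusted p = 0.00522), F192E, FE-ER, I757R and IR-ER. PTTG1, securin, the inhibitor of the protease that cuts cohesin, fell in CLIP (−0.28, edgeR adjusted p = 0.0128). CDC20, the activator of the APC/C, UBE2C, its ubiquitin-conjugating enzyme, and MAD2L1, the checkpoint protein that inhibits CDC20, passed in no single line without the block. With it CDC20 fell in CLIP (−0.26, edgeR adjusted p = 0.0217), F192E, FE-ER, IR-ER and LECY, UBE2C in F192E and FE-ER, and MAD2L1 in FE-ER and IR-ER. BUB3 then fell in all 8 lines.

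Without the replicate block, centromere and kinetochore genes changed less clearly in single lines. None of the 6 passed in CLIP, where 2 were at an unadjusted p under 0.05 (42.1% of all genes) and all 6 estimates were below 0. NDC80, whose product grips the microtubule end, fell in F192E and FE-ER, and CENPA fell in LECY (lowest estimate −0.51). CENPE, the kinetochore motor that brings chromosomes to the equator, had the most negative estimate of the group in CLIP (−0.54, SE 0.30, edgeR adjusted p = 0.165), and its siNT libraries ran from 124.7 to 206.2 CPM. With the replicate block CENPE fell in CLIP (−0.53, edgeR adjusted p = 0.0011), as did NDC80 (−0.32), SPC25 (−0.42) and NUF2 (−0.24). NDC80 then also fell in every other line except E797R, CENPE in F192E and LECY, and SPC25 in LECY. In the mean of the 7 lines CENPE, NDC80 and SPC25 fell and CENPA, CENPF and NUF2 did not pass.

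The chromosomal passenger complex held the clearest difference between lines. BIRC5 (survivin; chromosome 17, 78214186 to 78225636, hg38, plus strand), the subunit that docks the complex on centromeric chromatin, was at 185.8, 206.8 and 198 CPM in CLIP with siNT and at 221.9, 203.9 and 209.1 CPM with siUPF1. In CLIP the groups overlap and BIRC5 did not pass (0.10, SE 0.09, edgeR adjusted p = 0.424). In WT it was at 186.8, 196.6 and 182 CPM with siNT and at 148.4, 145.9 and 142.7 CPM with siUPF1. There the siUPF1 libraries were all lower, and BIRC5 fell by 0.37 (SE 0.09, edgeR adjusted p = 0.00486). It also fell in FE-ER (−0.41), I757R (−0.38), IR-ER (−0.52) and E797R (−0.42). In LECY it was at 205.1, 208.8 and 175.2 CPM and then 180.7, 193.6 and 190.6 CPM, overlapping as in CLIP (−0.06, edgeR adjusted p = 0.684).

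The difference of the BIRC5 knockdown effect from that in CLIP was itself tested, and these tests share the 6 CLIP libraries. It was −0.48 for WT (95% interval −0.74 to −0.21, edgeR adjusted p = 0.0297), −0.51 for FE-ER (edgeR adjusted p = 0.0365) and −0.49 for I757R (edgeR adjusted p = 0.0317). For IR-ER it was −0.63 (95% interval −0.90 to −0.36, edgeR adjusted p = 0.00354) and for E797R −0.52 (edgeR adjusted p = 0.0106). F192E had −0.35 (edgeR adjusted p = 0.5) and LECY −0.16 (95% interval −0.43 to 0.10, edgeR adjusted p = 1), neither passing. In the mean of the 7 lines the difference was −0.45 (95% interval −0.65 to −0.25, edgeR adjusted p = 0.00381). Leaving out replicate 1 or 3 of CLIP with either siRNA ended the call for WT, FE-ER and I757R. It also ended without replicate 2 of siNT or replicate 2 or 3 of siUPF1 in WT, without replicate 1 or 2 of siNT or 3 of siUPF1 in I757R, and in FE-ER without replicate 2 of CLIP siUPF1, 2 or 3 of siNT or 1 or 3 of siUPF1. The adjusted p reached 0.0814, 0.14 and 0.115, and the call for E797R ended without its replicate 3 of siUPF1 (edgeR adjusted p = 0.054). Without a low-count filter WT, FE-ER and I757R did not pass either, while IR-ER and the mean of the 7 lines passed without each single library. The partners of BIRC5, CDCA8 (borealin) and INCENP, the scaffold, had −0.15 and −0.23 in CLIP without passing. CDCA8 fell in FE-ER, I757R, IR-ER and E797R, by 0.51 in I757R (edgeR adjusted p = 3.22e-04), and INCENP in LECY. With the block INCENP also fell in CLIP (−0.24, edgeR adjusted p = 0.035) and E797R, and BIRC5 and CDCA8 in F192E.

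The 7 kinesins split. Beside KIF23, KIF2C, the depolymerase that corrects wrong attachments, fell in 6 of the 8 lines and was not called in CLIP (−0.11, edgeR adjusted p = 0.361) or LECY (−0.16, edgeR adjusted p = 0.184). Its mean over the 7 lines was −0.37 (SE 0.03, edgeR adjusted p = 2.5e-12), and the difference from CLIP was −0.26 (95% interval −0.45 to −0.07, edgeR adjusted p = 0.128). That difference passed only with the replicate block (−0.26, edgeR adjusted p = 0.0279). KIF20A, a kinesin of the central spindle that recruits PLK1, rose in WT (0.43, edgeR adjusted p = 0.00318), IR-ER (0.31, edgeR adjusted p = 0.0336) and E797R (0.44, edgeR adjusted p = 0.00272). In CLIP it was at 0.08 and in LECY at −0.05, neither passing, and the rise in IR-ER did not pass with RLE scaling, without a low-count filter, with only the groups compared in the fit, or without replicate 1 or 3 of siNT or 1 or 2 of siUPF1. KIF11, the motor that pushes spindle poles apart, rose by 0.15 in the mean of the 7 lines (edgeR adjusted p = 0.0071) and in no single line without the block, and with it in WT and E797R (0.21 and 0.30, edgeR adjusted p = 0.0214 and 6.06e-04). KIF4A fell by 0.13 there (edgeR adjusted p = 0.0139), and KIF14 and KIF20B did not pass.

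Beside HMMR, the spindle genes TPX2, which activates AURKA on microtubules, and PRC1, which crosslinks the central spindle, fell in the mean of the 7 lines by 0.13 and 0.07. Among single lines TPX2 fell in LECY and PRC1 in none. With the block TPX2 also fell in CLIP (−0.18, edgeR adjusted p = 0.00697) and FE-ER, and PRC1 in FE-ER. ANLN (anillin), which scaffolds the cleavage furrow, was at 147.5, 156.4 and 129.1 CPM in CLIP with siNT and 108, 105.5 and 97.07 CPM with siUPF1. Its groups did not overlap, yet it missed the threshold (−0.48, SE 0.20, edgeR adjusted p = 0.057) and passed with the replicate block (−0.48, edgeR adjusted p = 4.56e-06). ECT2, the exchange factor that activates RhoA at the furrow, had −0.09 in CLIP and 0.03 in the mean of the 7 lines and passed in no line.

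TOP2A (chromosome 17, 40388516 to 40417950, hg38, minus strand) was at 863.5, 871.7 and 774.3 CPM in CLIP with siNT and at 623.7, 635.4 and 556.4 CPM with siUPF1. The gap between the groups was wider than the spread within either, and TOP2A fell by 0.47 (SE 0.08, edgeR adjusted p = 1.06e-05). In E797R it was at 814.4, 844.1 and 683.1 CPM and then 785, 779.3 and 739.9 CPM, with overlapping groups (−0.02). The knockdown effect in E797R was 0.44 higher than that in CLIP (95% interval 0.22 to 0.67, edgeR adjusted p = 0.0097). Without replicate 3 of E797R with siNT, the lowest of its siNT libraries, the difference was 0.36 and no longer passed (edgeR adjusted p = 0.056), nor did it without a low-count filter or with only the groups compared in the fit (0.113 and 0.103). MKI67 fell in no line without the block, with −0.10 in CLIP (edgeR adjusted p = 0.638) and −0.09 in the mean of the 7 lines (edgeR adjusted p = 0.184). With the block it fell in LECY (−0.24, edgeR adjusted p = 0.0207) and in that mean (−0.09, edgeR adjusted p = 0.0136).

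Counted by line, the share of the 40 genes that fell was above the share of all genes that fell in each of the 8 lines. In WT 5 fell and 2 rose, against 6.98% of all genes lower and 8.43% higher. In F192E 9 fell (10.1% of all genes lower, 11.8% higher), in FE-ER 12 (8.52% and 10.1%), in I757R 8 (7.79% and 8.13%) and in LECY 10 (13.6% and 15.8%). None rose in these 4 lines by edgeR or DESeq2, and at an unadjusted p under 0.05 TTK was higher in F192E, FE-ER and I757R and KIF20A in FE-ER (28.2% to 39.1% of all genes passed that threshold in these 4 lines, in either direction). In IR-ER 11 fell and 1 rose (7.8% of all genes lower, 9.21% higher), and in E797R 7 fell and 2 rose (7.73% and 8.34%). With only the groups compared in the fit, 2 genes fell in WT and 4 each in I757R and E797R, against 3.13%, 3.74% and 3.65% of all genes. Single libraries moved some counts: without replicate 2 of siNT 3 genes fell in WT and 6 in IR-ER, and without replicate 3 of siUPF1 5 fell in I757R. In WT 1 gene rose without replicate 1 or 3 of siNT or replicate 2 of siUPF1. HMMR, KIF23 and AURKA fell in all 8 lines, KIF2C in 6, and BUB1, BUB3, BIRC5 and TOP2A in 5. Without the replicate block no call was made in any single line for 19 genes, and 23 genes had estimates below 0 in all 8 lines. With the block, only CDC25B, PLK1, CENPF, KIF14, KIF20B and ECT2 were called in no single line. Medians of the 40 genes ran from −0.07 in E797R and −0.11 in WT to −0.24 in FE-ER, and those of all genes from −0.03 to 0.02. The median was −0.024 in WT without replicate 2 of siNT, and without replicate 3 of siUPF1 it was −0.020 in E797R and −0.087 in I757R.

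With the replicate block the counts were larger and kept every call made without it. In WT 8 fell and 3 rose (12.4% and 13.7% of all genes), in F192E 21 and 1 (16.7% and 17.9%), in FE-ER 23 and 2 (14.9% and 16.2%) and in I757R 14 and 1 (14.1% and 14.4%). In IR-ER 17 fell and 2 rose (13% and 15.3%), in E797R 11 and 3 (13.5% and 14%), and in LECY 20 and 0 (20.2% and 21.4%).

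The mean over the 7 CLIP-UPF1 lines averages 42 libraries and is the most precise reading. Its SE measures the spread between replicates and not that between lines. The lines in it are unlike: the knockdown effect differed from CLIP in 0.00599% of all genes in LECY and in 6.01% in E797R. In this mean 27 of the 40 genes fell and 3 rose, against 29.1% of all genes lower and 29.8% higher. The median was −0.18 for the 40 genes and 0.00 for all genes. The fallers ranged from HMMR at −1.07 to PRC1 at −0.07, and TTK, KIF20A and KIF11 rose. The 10 genes that did not pass were CCNA2, CDC25B, PLK1, CENPA, CENPF, NUF2, KIF14, KIF20B, ECT2 and MKI67. With the block 31 fell and 3 rose (32.8% and 33.3% of all genes), as CCNA2, CENPA, KIF14 and MKI67 then fell too.

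**Figure D3:**
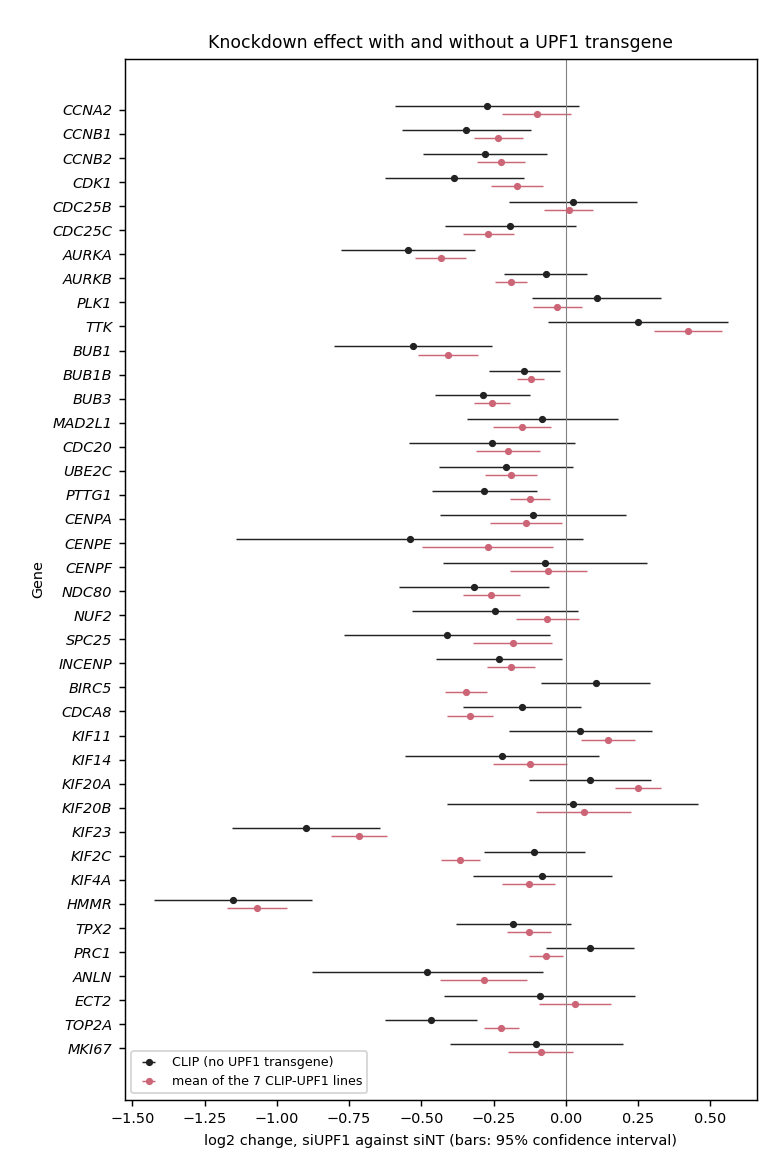
Log2 change on knockdown of each gene in CLIP (black) and in the mean of the 7 CLIP-UPF1 lines (red), with 95% confidence intervals. Intervals are narrower for the mean, HMMR and KIF23 lie far to the left in both, and the 2 estimates of BIRC5 fall on opposite sides of 0.

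Without the replicate block, few of the 40 genes differed from CLIP in the knockdown effect, and their shares were near those of all genes. Against CLIP, 1 of the 40 genes differed in WT (4% of all genes differed), FE-ER (1.32%), I757R (2.77%), IR-ER (2.84%) and the mean of the 7 lines (4.23%), in each case BIRC5. In E797R 2 differed (6.01%), BIRC5 and TOP2A. In F192E (0.311%) and LECY (0.00599%) edgeR called none, DESeq2 none, and 2 and 0 were at an unadjusted p under 0.05 (5.52% and 1.23% of all genes). For HMMR the difference of WT from CLIP was 0.21 (95% interval −0.18 to 0.59), for KIF23 0.23 (−0.13 to 0.59) and for AURKA 0.22 (−0.11 to 0.55). These intervals hold 0 and also hold reductions of the effect in WT. With the block, 9 of the 40 differed between E797R and CLIP (14.3% of all genes), among them HMMR (0.37, edgeR adjusted p = 0.0245) and KIF23 (0.30, edgeR adjusted p = 0.0495), both less reduced in E797R, and TTK. The block also gave 3 genes in WT (9.55% of all genes), 2 in FE-ER (3.78%), 3 in I757R (7.23%) and 3 in the mean of the 7 lines (10.4%), BIRC5 among them each time.

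Between each mutant and WT, edgeR called no difference of knockdown effects in any of the 40 genes, against 0% to 0.18% of all genes in F192E, FE-ER, I757R, IR-ER and E797R and 3.31% in LECY. At an unadjusted p under 0.05 there were 0, 0, 1, 0 and 1 genes in those 5 lines, where 1.64% to 4.38% of all genes were, and 4 in LECY, where 13.5% were. DESeq2 called 1 in LECY (3.84% of all genes) and none in the others. With the block (8.46% of all genes), BIRC5 (0.31, edgeR adjusted p = 0.0454) and KIF20A (−0.48, edgeR adjusted p = 0.00517) differed between LECY and WT.

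With siUPF1, levels differed between WT and CLIP in 5 genes, where 5.45% of all genes were higher and 8.61% lower. KIF20A was 0.41 higher, TOP2A 0.31 higher (edgeR adjusted p = 0.005 and 0.00502) and PTTG1 also higher in WT, and BIRC5 was 0.54 lower (edgeR adjusted p = 5.58e-05) and KIF2C also lower. LECY differed from WT in 4 genes, where 8.18% of all genes were higher and 5.34% lower. KIF20A was lower by −0.48 (edgeR adjusted p = 0.00121), BIRC5 higher by 0.37 (edgeR adjusted p = 0.00548), CCNB2 lower by −0.33 (edgeR adjusted p = 0.0376), and TOP2A lower as well. With the block these counts were 15 (12.3% of all genes higher, 13.1% lower) and 16 (12.6% and 11.8%), and the sets then included HMMR, KIF23, BUB1 and TTK, which were higher in WT than in CLIP and lower in LECY than in WT. None of the 40 genes differed from WT in the other 5 mutants by edgeR, where 1.82% (F192E), 0.425% (FE-ER), 0.0779% (I757R), 0.246% (IR-ER) and 0.0479% (E797R) of all genes did. There DESeq2 called 1 gene, in FE-ER (0.773% of all genes). At an unadjusted p under 0.05 were 5, 4, 3, 8 and 5 genes, against 12.1%, 8.7%, 7.41%, 7.9% and 4.79% of all genes, and with the block 4, 2 and 6 genes were lower in F192E, FE-ER and IR-ER (2.74%, 0.934% and 1.01% of all genes lower).

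Taken library by library, the mean log2 level of the 40 genes was lower with siUPF1 than with siNT in all 24 pairs of the same line and replicate number. The difference averaged −0.23 ± 0.0107 in CLIP, −0.12 ± 0.0306 in WT, −0.09 ± 0.0408 in E797R and −0.22 ± 0.0518 in LECY (SD over 3 pairs). Replicates also differed among themselves. Replicate 2 was highest with siNT (6.963 to 7.069 over the 8 lines) and replicate 3 lowest (6.664 to 6.871). Mitochondrial mRNAs were lowest in replicate 2 (1.98% to 2.56% of a siNT library, against 2.68% to 3.62% in the other replicates), and whether the 2 are linked was not tested.

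**Figure D4:**
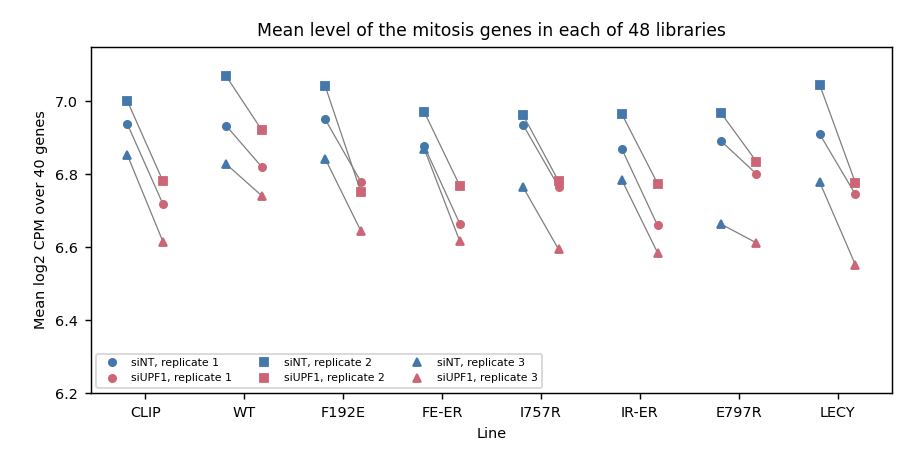
Mean log2 CPM of the 40 genes in each library by line, with siNT (blue) joined to siUPF1 (red) of the same replicate number. All 24 lines slope down, the shallowest in E797R, and squares (replicate 2) sit above triangles (replicate 3) in each line and siRNA.

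By individual libraries, the 3 siUPF1 values were all lower than the 3 siNT values for 14 genes in CLIP, 6 in WT, 17 in F192E and 23 in FE-ER. Among all genes the shares were 22.6%, 12.8%, 17.6% and 16.4%. For I757R, IR-ER, E797R and LECY it was 12, 15, 10 and 17 genes, against 13.9%, 14.6%, 13.6% and 18.8% of all genes. The siUPF1 values were all higher for TTK in 6 lines and for KIF20A in 4. By line this was 0 genes in CLIP and LECY, 1 in F192E and I757R, and 2 in WT, FE-ER, IR-ER and E797R. The shares of all genes that were all higher were 23.3% in CLIP, 13.2% in WT, 18.8% in F192E and 17.6% in FE-ER. They were 14.7% in I757R, 17.1% in IR-ER, 15% in E797R and 20.1% in LECY.

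Transcripts that GENCODE 29 annotates as NMD targets exist for 13 of the 40 genes (32.5%), against 42.7% of the 13306 coding genes tested. The gene-level counts used here cannot tell these transcripts from the others of the gene. The 13 genes had a median of −0.11 in CLIP with 2 lower, and the other 27 had −0.23 with 8 lower. Of all genes tested 15.6% were lower there, and 2 of 13 is near that share. In the mean of the 7 lines the medians were −0.15 and −0.18, with 8 of the 13 and 19 of the 27 lower (29.1% of all genes). TTK, KIF20A, BIRC5 and KIF23 each have at least 1 such transcript, and HMMR, AURKA, BUB1 and TOP2A have none.

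Other cell cycle genes were read from lists by function. The shares of all genes to set beside them are 15.6% lower and 18.1% higher in CLIP. For the mean of the 7 lines they are 29.1% and 29.8%. Of 28 other kinetochore genes, 11 fell and 2 rose in CLIP, and 18 fell and 3 rose in the mean of the 7 lines. The largest falls in CLIP were CENPW (−2.06, edgeR adjusted p = 8.58e-11), CENPI (−1.25) and CENPH (−0.77), all of the inner kinetochore. Of 22 other spindle and cytokinesis genes, 7 fell and 2 rose in CLIP, led by the centrosomal kinase NEK2 (−1.14, edgeR adjusted p = 7.74e-11), CKAP2 and RACGAP1 (−0.81 each). Condensin and cohesin had 6 lower and 3 higher of 21 in CLIP, with the condensin subunits SMC4 (−0.79) and NCAPG (−0.46) lower and the cohesin subunit STAG1 (0.79) higher. Among 15 APC/C genes, only CDC27 fell (−0.48) and only the activator FZR1 rose (0.34) in CLIP, both below the shares of all genes.

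Regulators of the cell cycle were called in both directions, as were all genes (18.1% higher and 15.6% lower in CLIP). In the mean of the 7 lines these shares of all genes were 29.8% and 29.1%. Of 13 cell cycle transcription factors, 4 rose and 2 fell in CLIP, with MYBL2 (0.66, edgeR adjusted p = 1.18e-04) and RBL1 (0.59) higher, E2F4 (0.48) higher and LIN9 lower in a list whose median was 0.09. In the mean of the 7 lines 5 rose and 1 fell. Of 24 genes of the G1 to S transition, 4 rose and 4 fell in CLIP, near the shares of all genes. The called genes included CDC25A (0.73), E2F1 (0.51) and TYMS (−0.46). Among 11 genes tested of 12 in a list of CDK inhibitors, G2 brakes and related genes, 3 rose and 1 fell in CLIP. GADD45A (1.01, edgeR adjusted p = 1.73e-04) and CDKN2D (0.67) were higher. MDM2 (−0.60), neither a CDK inhibitor nor a G2 brake, was lower.

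**Figure D5:**
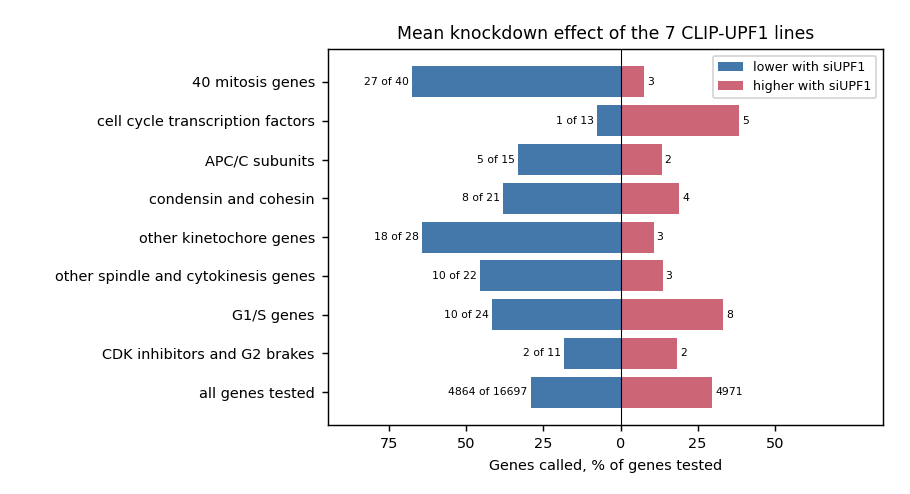
Share of the genes tested in each list that were lower (left, blue) or higher (right, red) in the mean knockdown effect of the 7 CLIP-UPF1 lines, with counts. The 40 mitosis genes (27 lower, 3 higher) and the other kinetochore genes (18 lower, 3 higher) have long left bars. The transcription factors (1 lower, 5 higher) do not, and all genes tested are nearly even (29.1% lower, 29.8% higher).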

How the data were processed

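RNA from 48 libraries was measured by paired-end sequencing after removal of ribosomal RNA. The authors deposited RSEM expected counts per gene on hg38, made with cutadapt, STAR, RSEM and DESeq2 per the submitters' processing notes, with no versions or roles. No source used here gives the annotation or the strand setting, so antisense or overlapping genes and pseudogene copies may share reads. Of the deposited expected counts 9.16% were not whole, and all were rounded. Genes passing filterByExpr (minimum count 10) entered 1 edgeR 4.0.16 model (R 4.3.3, limma 3.58.1) with 16 groups, TMM scaling and robust quasi-likelihood tests, adjusted by Benjamini-Hochberg over 16697 genes. All tests were two-sided. In the main fit, p-values measure a spread between replicates estimated over all 16 groups and drawn partly from other genes. It is not the spread of the 3 against 3 libraries alone. Separate culture of the 3 replicates is not described beyond the word biological. With 3 against 3, an exact permutation test cannot go below p = 0.1, so none was used.

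The 40 genes and the lists of other genes were chosen with earlier results of these data known. Every gene could be named. Values of each library are given for the 6 largest called changes in CLIP and the 4 largest in the mean of the 7 lines, and, chosen after their values were seen, for BIRC5 and ANLN. In the other comparisons up to 4 called genes, and in lists of other genes up to 3, are given by size of change. Same-numbered siNT and siUPF1 libraries of a line deviated together from their group means in 24 of 24 pairs (correlation 0.115 to 0.469). A fit with the replicate number as a block was therefore set beside the main one. The block gives each replicate number an effect shared by all 8 lines and does not pair the libraries within each line. Alternatives were RLE factors, DESeq2 1.42.0, no filter, only the groups compared, and leaving out each library. The scripts were tested on simulated counts. Gene positions came from GENCODE 29 by Ensembl ID (40 of 40 matched). One result on genes outside the 40 is not reported here.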

Additional observations from a re-analysis of the deposited data

Results flagged for a closer look

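The knockdown effect on BIRC5 was lower than in CLIP by a test of the difference itself in 5 lines and in the mean of the 7 CLIP-UPF1 lines. The differences were −0.48 (WT), −0.51 (FE-ER), −0.49 (I757R), −0.63 (IR-ER), −0.52 (E797R) and −0.45 (mean of the 7 lines) on the log2 scale, and all share the 6 CLIP libraries. TOP2A differed the other way between E797R and CLIP, by 0.44. No other of the 40 genes differed in its knockdown effect between the lines compared in the fit without the replicate block.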

How the results depend on the processing

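No alternative varied the depth, so what depth limits was not tested. No median or single gene recomputed here changed direction. The replicate block gave larger counts: 20 lower in CLIP and in LECY, 8 in WT, 21 in F192E, 14 in I757R, 11 in E797R, 23 in FE-ER and 17 in IR-ER, and 1 higher in CLIP, F192E and I757R and 2 in FE-ER and IR-ER. With the block, the pairing also gave more differences of knockdown effects (WT 3, FE-ER 2, I757R 3, E797R 9 and the mean of the 7 lines 3 against CLIP, LECY 2 against WT) and of siUPF1 levels (WT 15 against CLIP; F192E 4, FE-ER 2, IR-ER 6 and LECY 16 against WT). It ended no call.

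RLE factors left 0 risers in IR-ER (median −0.19). Without a filter, 3 genes fell in WT, 1 rose in each of F192E, FE-ER and I757R and 0 in IR-ER (median −0.20), 0 knockdown effects differed from CLIP in WT, FE-ER and I757R and 1 in E797R, and siUPF1 levels differed in 3 genes for WT against CLIP, 1 for IR-ER and 2 for LECY against WT. BIRC5 then had adjusted p of 0.0767 (WT), 0.0713 (FE-ER) and 0.0608 (I757R) and TOP2A (E797R) 0.113. With only the groups compared in the fit, 2 genes fell and 1 rose in WT, 1 rose in F192E and in FE-ER, 4 fell in I757R and in E797R, and 0 rose in IR-ER (median −0.19). Against CLIP, 0 then differed in I757R (BIRC5 adjusted p = 0.0669) and 1 in E797R (TOP2A 0.103), and siUPF1 levels differed in 2 genes (WT against CLIP) and 1 (LECY against WT). DESeq2 moved the IR-ER median to −0.19 and gave 1 gene for the knockdown effect in LECY against WT and 1 for the siUPF1 level in FE-ER against WT. Why these counts moved was not tested.

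Leaving out 1 library gave the following ranges. Genes lower numbered 3 to 6 in WT (3 without replicate 2 of siNT), 5 to 8 in I757R (5 without replicate 3 of siUPF1) and 6 to 10 in IR-ER (6 without replicate 2 of siNT), and genes higher 1 to 2 in WT and 0 to 1 in IR-ER. Medians ran from −0.22 to −0.17 in CLIP, −0.16 to −0.024 in WT, −0.27 to −0.19 in FE-ER, −0.20 to −0.087 in I757R, −0.25 to −0.13 in IR-ER, −0.15 to −0.020 in E797R and −0.26 to −0.15 in LECY. Differences from CLIP numbered 0 to 1 in WT, FE-ER and I757R and 1 to 2 in E797R, and that of LECY from WT 0 to 1. siUPF1 levels differed in 3 to 6 genes for WT against CLIP and 0 to 1 for F192E against WT. CDK1 in CLIP lost its call without replicate 2 of siNT or replicate 1 of siUPF1 (adjusted p 0.0763 and 0.0689).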
